A study of Mus musculus with 2 samples.

Results

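The IL-6 family of cytokines and receptors was described in single liver cells of healthy mice and of mice injured with carbon tetrachloride (CCl4), a toxin that is activated in hepatocytes and that scars the liver when given repeatedly. The family was taken as 10 genes, matched by Ensembl identifier in both count matrices: the ligands Il6 (ENSMUSG00000025746), Lif (ENSMUSG00000034394), Il11 (ENSMUSG00000004371) and Osm (ENSMUSG00000058755), the receptors Il6st (ENSMUSG00000021756), Lifr (ENSMUSG00000054263), Osmr (ENSMUSG00000022146), Il6ra (ENSMUSG00000027947) and Il11ra1 (ENSMUSG00000073889), and the feedback gene Socs3 (ENSMUSG00000053113). They are 10 of the 30406 genes listed in both matrices, and each of the 10 had at least 1 count in each library. The healthy group and the CCl4 group were 1 library each, so no difference between them has a replicate check, no test was made, and library, processing and injury cannot be told apart. Both groups carried the alleles Col1a2CreER and Rosa26tdTomato, a reporter that marks, in red, cells with an active Col1a2 promoter, chiefly mesenchymal cells. The study's methods place the mice on a C57BL/6 background, use young adult animals of both sexes, and give CCl4 in corn oil by repeated intraperitoneal injection over weeks. How many animals went into each library is not given in the sources used here. The labels call the samples whole liver cells, whereas the methods remove most CD45-positive (immune) cells with magnetic beads, so the number of immune cells is not that of the liver.

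IL-6 family cytokines signal through the shared receptor chain gp130, encoded by Il6st. IL-6 and IL-11 first bind their own receptor chains (Il6ra and Il11ra1), LIF uses gp130 together with the LIF receptor (Lifr), and oncostatin M (Osm) uses gp130 together with its own receptor chain (Osmr), in the mouse more than Lifr. The receptors activate JAK kinases and the transcription factor STAT3, which induces Socs3, an inhibitor of the same receptors, and in hepatocytes the acute phase genes. A soluble form of the IL-6 receptor, released by the sheddases ADAM10 and ADAM17, can deliver IL-6 to cells that have gp130 alone. In the liver the family is known for acute phase proteins, for regeneration and, through IL-11 and oncostatin M, for fibrosis.

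The sequences just upstream of the annotated starts of Il6, Lif and Socs3 are shown because Il6 and Lif were counted highest in the same cluster, which carries mesenchymal and mesothelial markers, among the populations without immune markers, and because Socs3 is the feedback gene of the pathway. They come from RefSeq (GRCm38.p6) and hold the 250 bases before the start, written in the direction of the gene, and capitals mark matches of the motifs searched. The window of Il6 is chr5:30012864-30013113 on the plus strand, that of Lif chr11:4257318-4257567 on the plus strand and that of Socs3 chr11:117969367-117969616 on the minus strand.
Il6 upstream window: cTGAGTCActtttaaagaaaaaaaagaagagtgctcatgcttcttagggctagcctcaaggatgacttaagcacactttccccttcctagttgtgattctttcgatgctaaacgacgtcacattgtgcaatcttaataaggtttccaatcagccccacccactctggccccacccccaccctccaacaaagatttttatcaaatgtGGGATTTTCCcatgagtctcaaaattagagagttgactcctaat
Lif upstream window: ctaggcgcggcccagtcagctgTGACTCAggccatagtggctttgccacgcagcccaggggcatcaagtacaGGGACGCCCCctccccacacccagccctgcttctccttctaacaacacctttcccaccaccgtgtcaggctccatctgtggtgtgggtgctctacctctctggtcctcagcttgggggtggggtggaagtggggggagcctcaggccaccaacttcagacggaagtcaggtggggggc
Socs3 upstream window: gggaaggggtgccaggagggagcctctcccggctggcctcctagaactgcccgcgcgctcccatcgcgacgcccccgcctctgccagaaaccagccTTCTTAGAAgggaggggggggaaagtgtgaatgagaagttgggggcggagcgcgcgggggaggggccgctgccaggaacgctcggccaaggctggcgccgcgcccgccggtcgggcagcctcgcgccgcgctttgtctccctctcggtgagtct

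In the windows of Il6 and Lif the capitals are an AP-1 motif (TGANTCA) and then an NF-kB motif, and in that of Socs3 they are a STAT motif (TTCNNNGAA); all were searched on both strands and none of the matches overlap. Relative to the annotated start, the AP-1 and NF-kB matches begin at -249 and -44 in Il6 and at -228 and -178 in Lif, and the STAT match begins at -154 in Socs3. Of the 10 genes 9 had an upstream window, with 12 windows in all, and Osm had no entry. A STAT motif was found in 1 of the 9 genes, an AP-1 motif in 3 (Il6, Lif and the second entry of Il11) and an NF-kB motif in 2. Among all 32851 windows of the same length, 7.02% held the STAT, 6.75% the AP-1 and 7.25% the NF-kB motif. These shares are per window and the counts above per gene, and a gene with more than 1 window has more chances of a match. A match is a description of the letters and is not a measured binding site.

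RNA molecules were counted by unique molecular identifiers (UMIs), 1 per captured molecule. The healthy library held 6297 cells and 51122846 UMIs, and the CCl4 library 8460 cells and 97611831 UMIs. After removal of poor cells and doublets, 5602 cells of the healthy library, with a median of 6798.5 UMIs, and 7290 of the CCl4 library, with a median of 11975.5, remained, and the libraries shared 10 cell barcodes. Joint clustering without the family's genes gave 23 clusters, of which 17 were named from markers, with 96.7% of the healthy and 74.8% of the CCl4 cells in named clusters. The libraries held different cells: endothelial-like cells numbered 3555 in the healthy and 653 in the CCl4 library, cholangiocyte-like cells 1434 and 32, hepatocyte-like cells 160 and 9, mesothelial-like cells (the lining of the liver surface) 235 and 864, mesenchymal-like cells 15 and 3530, and macrophage and monocyte-like cells 14 and 199. In these groups nearly every marker of the group's own list had at least 1 UMI in the group as a whole. The groups were named from these same lists, so this is no independent check of the names. An unnamed cluster of 641 CCl4 cells, led by Serpinb2 and Cxcl5, carried some markers of mesenchymal cells (Dcn in 99.4% of cells) and of mesothelial cells (Wt1 in 89.2%), and is called the Serpinb2 and Cxcl5 cluster. Only 4 of 21 mesenchymal and 3 of 12 mesothelial markers were 2-fold over the mean of the other clusters and in 10% of its cells. Other markers of both lists were sparse there, among them Lrat (5.15%), Mfap4 (9.20%), Muc16 (6.08%) and Msln (24.8%). Levels below are summed UMIs scaled to counts per 1e6 UMIs (CPM) in the 17 populations of at least 50 cells, 5 healthy and 12 CCl4, with exact 95% intervals in square brackets that cover counting error only. A gene's level is compared between cells and not with that of another gene, since counting at the 3' end does not put genes on 1 scale. Where the share of cells with a UMI is given after thinning, every cell with at least 2000 UMIs was reduced to 2000. Cells with fewer were left out of that share.

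Il6 was barely counted in the healthy library and was found in few cells of the CCl4 library, chiefly in the Serpinb2 and Cxcl5 cluster with its mesenchymal and mesothelial markers. In all, 2 UMIs of Il6 were counted in the healthy and 551 in the CCl4 library, or 0.0392 and 5.67 CPM over the whole files. Both healthy UMIs lay in macrophage and monocyte-like cells. Of the 506 Il6 UMIs in kept CCl4 cells, 285 (56.3%) were in the Serpinb2 and Cxcl5 cluster, 121 (23.9%) in mesenchymal-like, 51 in mesothelial-like and 41 in macrophage and monocyte-like cells. The highest level was that of macrophage and monocyte-like cells, 33.9 CPM [24.3, 45.9], from 12 of 199 cells, and the next that of the Serpinb2 and Cxcl5 cluster, 21.6 CPM [19.1, 24.2], from 111 of 641 cells. The intervals of these neighbours just fail to overlap, and the macrophage value rests on 12 cells. Il6 then stood at 3.22 CPM [2.40, 4.23] in mesothelial-like and at 2.52 CPM [2.09, 3.01] in mesenchymal-like cells of the CCl4 library, 2 levels whose intervals overlap. Within the mesenchymal-like cells the cluster led by Dpep1, Thbs4 and Mfap4 held 77 of the 121 UMIs, at 3.98 CPM [3.14, 4.98]. No Il6 UMI was found in the healthy endothelial-like cells (limit 0.145 CPM by 3 counts), healthy mesothelial-like cells (0.780 CPM), cholangiocyte-like cells (0.164 CPM) or hepatocyte-like cells (1.22 CPM). Il6 UMIs were thus seen in 7 of the 17 populations.

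Within the Serpinb2 and Cxcl5 cluster Il6 was concentrated in a minority of cells. A UMI of Il6 was found in 17.3% of its cells, in 3.53% [2.21, 5.33] after thinning, and in 0 of 1434 cholangiocyte-like cells, which allows a share of up to 0.209%. Their median depths were 20330 and 11209.5 UMIs per cell. Of the 111 cells, 56 had 1 UMI, 20 had 2 and 35 had at least 3, and these 35 held 189 of the 285 UMIs, with 13 in the highest cell. Lif was also counted in 17.1% of the cells with Il6 and in 5.28% of those without, and cells with Il6 were deeper (median 25423 against 19441 UMIs), so depth moves with this difference and its part was not tested. None of the cells with Il6 had a UMI of Osm.

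**Figure D1:**
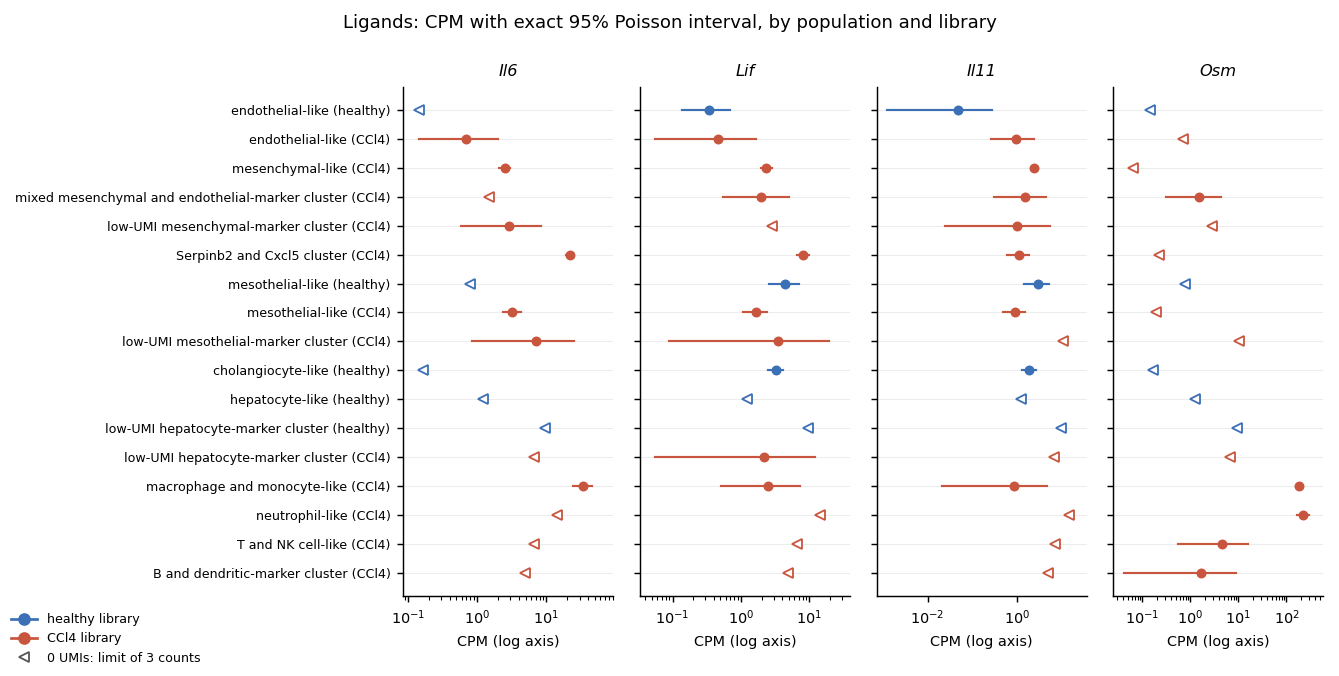
Level of the 4 ligands in the 17 populations of at least 50 cells, in CPM on a logarithmic axis that differs between panels, with blue for the healthy and red for the CCl4 library, points with exact 95% Poisson intervals, and open triangles at the limit of 3 counts where no UMI was found. Il6 is highest in the macrophage and monocyte-like cells (33.9 CPM) and the Serpinb2 and Cxcl5 cluster (21.6 CPM), and Osm in the neutrophil-like (221 CPM) and macrophage and monocyte-like cells (184 CPM).

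Osm, which is made mainly by myeloid cells, was the ligand with the narrowest distribution. It had 6 UMIs in the healthy library, all in 1 T and NK cell-like cell, and 285 in the CCl4 library. Neutrophil-like cells held 47 UMIs (221 CPM [162, 294], 21 of 67 cells) and macrophage and monocyte-like cells 223 UMIs (184 CPM [161, 210], 29 of 199 cells), and the intervals of both levels overlap. After thinning, 24.5% of the neutrophil-like and 13.0% of the macrophage and monocyte-like cells had an Osm UMI, against 0 of 3530 mesenchymal-like cells before it (up to 0.085%), with median depths of 2272, 4808 and 13563.5 UMIs. Together they held 270 of the 276 Osm UMIs in kept CCl4 cells. There was no Osm UMI in mesenchymal-like cells (limit 0.0625 CPM), nor in mesothelial-like, endothelial-like, cholangiocyte-like or hepatocyte-like cells or the Serpinb2 and Cxcl5 cluster, where the limit was 0.227 CPM, and 5 of the 17 populations had a UMI at all.

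The Osm and Il6 counts of the macrophage and monocyte-like cells came mostly from 14 cells that express genes known from basophils and mast cells. These were chosen after the values were seen, by a UMI of Mcpt8, Prss34 or Ms4a2, and 2 of them also had a UMI of a C1q gene. The 14 cells with such a UMI held 198 of the 223 Osm UMIs (3484 CPM [3016, 4005]), with an Osm UMI in each of the 14, and 39 of the 41 Il6 UMIs (686 CPM [488, 938], 10 cells). The remaining cells held little of either ligand: 124 cells with a UMI of a C1q gene, made by macrophages, and none of those genes had 11 Osm and 2 Il6 UMIs, and the 61 cells with neither had 14 and 0. Among the 63 cells with a UMI of Clec4f, a gene of Kupffer cells (the resident macrophages of the liver), there was 1 Osm UMI. Without the 14 cells the level of the group was 21.7 CPM for Osm and 1.73 CPM for Il6. The receptor gene Il6ra was divided the other way, with 0 UMIs in the 14 cells (which allows up to 3 counts), 53 in the C1q cells (69.4 CPM [52.0, 90.8]) and 61 in the others (156 CPM [119, 201]).

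**Figure D2:**
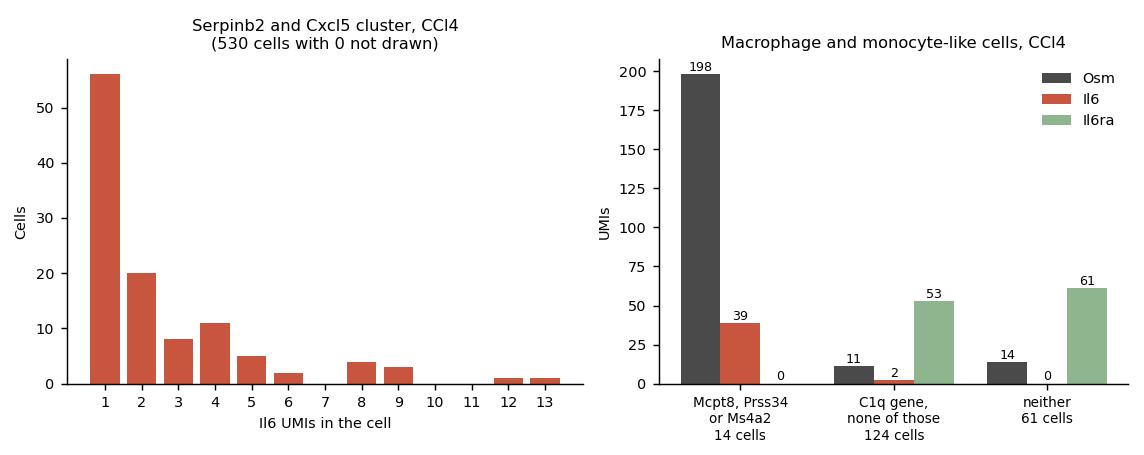
Left, number of cells (vertical axis) by Il6 UMIs per cell (horizontal axis) in the Serpinb2 and Cxcl5 cluster of the CCl4 library; right, UMIs (vertical axis) of Osm, Il6 and Il6ra in 3 subsets of its macrophage and monocyte-like cells. The 14 cells with a UMI of Mcpt8, Prss34 or Ms4a2 hold 198 Osm and 39 Il6 UMIs but no Il6ra UMI.

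Lif was counted mainly in cholangiocyte-like and mesothelial-like cells of the healthy library and in the Serpinb2 and Cxcl5 cluster, mesenchymal-like and mesothelial-like cells of the CCl4 library. The healthy library had 87 UMIs and the CCl4 library 303. Of the 83 UMIs in kept healthy cells, 59 (71.1%) were in cholangiocyte-like cells, at 3.22 CPM [2.45, 4.15], and 17 in mesothelial-like cells, at 4.42 CPM [2.57, 7.08], so that these neighbours do not differ beyond counting error. Of the 17, 6 lay in a single cell, and the other cluster of healthy mesothelial-like cells, led by Myl7, Prph and Igfbp5, had 11 UMIs in 232 cells, 2.90 CPM [1.45, 5.19]. In the CCl4 library the Serpinb2 and Cxcl5 cluster led with 107 UMIs, 8.10 CPM [6.64, 9.78], in 47 of 641 cells, against 2.35 CPM [1.94, 2.83] in mesenchymal-like cells (113 UMIs) and 1.64 CPM [1.07, 2.40] in mesothelial-like cells (26 UMIs). The interval of the Serpinb2 and Cxcl5 cluster lay above those of both. Endothelial-like cells had 7 Lif UMIs in the healthy and 2 in the CCl4 library, and hepatocyte-like cells had none.

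Il11, a cytokine known to act on fibroblasts, was counted at a low level in the same kinds of cells. It had 47 UMIs in the healthy and 170 in the CCl4 library. Healthy cholangiocyte-like cells held 33 UMIs (1.80 CPM [1.24, 2.53]) and healthy mesothelial-like cells 11 (2.86 CPM [1.43, 5.12]). In the CCl4 library 114 of 151 UMIs in kept cells (75.5%) were in mesenchymal-like cells, at 2.37 CPM [1.96, 2.85], spread over 110 cells, so almost every cell with Il11 had a single UMI of it. Among mesenchymal-like clusters the one led by Dpep1, Thbs4 and Mfap4 had 60 UMIs, 3.1 CPM [2.37, 3.99], and the dividing cells led by Cenpf, Prc1 and Hmmr had 3. The Serpinb2 and Cxcl5 cluster, which led for Il6 and Lif among cells without immune markers, had 1.06 CPM [0.579, 1.78] of Il11, below the mesenchymal-like level.

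Il6st, the shared chain gp130, was counted in every population and was highest in endothelial-like cells. Healthy endothelial-like cells had 27694 UMIs, 1336 CPM [1320, 1351], and after thinning 90.1% of them had an Il6st UMI. Their clusters of at least 50 cells ranged from 1144 CPM [1103, 1186] in the vascular and lymphatic-marker cells led by Ccl21a, Vwf and Mmrn1 to 1524 CPM [1486, 1564] in the cells led by Cyp4b1, Clec4g and Col13a1, the latter with markers of sinusoidal cells, and the 44 healthy cells in the cluster led by Rpl39l, Sox2 and Tubb3 had 122 CPM [96.1, 153]. In the CCl4 library Il6st was at 630 CPM [596, 665] in the mixed mesenchymal and endothelial-marker cluster and 573 CPM [551, 596] in endothelial-like cells. Mesenchymal-like cells had 372 CPM [366, 377]. Their clusters ran from 232 CPM in the cells led by Cenpf, Prc1 and Hmmr to 588 CPM in those led by Nr1h5, Carmn and Reln. The cells led by Angptl6, Colec11 and Colec10 had 483 CPM and those led by Dpep1, Thbs4 and Mfap4 had 314 CPM. Mesothelial-like cells, 178 CPM [172, 185], and the Serpinb2 and Cxcl5 cluster, 175 CPM [168, 182], did not differ beyond counting error. Hepatocyte-like cells had 57.1 CPM [48.0, 67.3], macrophage and monocyte-like cells 60.3 CPM [47.2, 75.8] and neutrophil-like cells 3 UMIs in all.

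Lifr was likewise highest in endothelial-like cells, and was low in mesothelial-like cells. Healthy endothelial-like cells had 993 CPM [980, 1007] of Lifr, with a UMI in 82.3% of thinned cells against 2.49% of T and NK cell-like and 2.02% of neutrophil-like cells, and the cluster led by Ccl21a, Vwf and Mmrn1 was the lowest of those of at least 50 cells at 538 CPM [509, 567]. The 44 healthy cells in the cluster led by Rpl39l, Sox2 and Tubb3 had 117 CPM [91.8, 147]. The CCl4 library had 593 CPM [571, 617] in endothelial-like and 235 CPM [231, 240] in mesenchymal-like cells. Hepatocyte-like cells of the healthy library had 224 CPM [206, 244], with a UMI in 82 of 160 cells. The lowest levels were in healthy mesothelial-like cells, 14.6 CPM [11.0, 18.9], and neutrophil-like cells, with 2 UMIs.

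Osmr, the receptor chain of oncostatin M, was a receptor of stromal and endothelial cells. In the CCl4 library it was at 108 CPM [102, 114] in the Serpinb2 and Cxcl5 cluster, 90.8 CPM [88.2, 93.6] in mesenchymal-like cells and 79.2 CPM [74.8, 83.7] in mesothelial-like cells, levels whose intervals are separate. Among mesenchymal-like clusters it was highest in the cells led by Dpep1, Thbs4 and Mfap4, 133 CPM [128, 138]. It was lowest in those led by Angptl6, Colec11 and Colec10, which are stellate cell markers, 53.0 CPM [48.8, 57.4]. Other clusters with the stellate markers Lrat, Reln and Colec11 were higher. The cells led by Cxcl14, Tagln and Ankrd55 had 68.5 CPM [63.8, 73.6]. Those led by Nr1h5, Carmn and Reln had 120 CPM [98.9, 144], an interval that overlaps that of the highest cluster. Healthy endothelial-like cells had 95.2 CPM [91.0, 99.5]. Cells outside these groups had little Osmr: cholangiocyte-like cells had 8.29 CPM [7.03, 9.72], macrophage and monocyte-like cells 8.26 CPM [3.96, 15.2] and hepatocyte-like cells 2.45 CPM [0.897, 5.32] from 6 UMIs. Nearly all Osm UMIs thus lay in populations other than those that held Osmr.

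Il6ra, which makes a cell able to bind IL-6 itself, was led by a population that had little Lifr. Healthy mesothelial-like cells had 148 CPM [136, 161], with a UMI in 184 of 235 cells (78.3%, median 18285 UMIs), against 26 of 1434 cholangiocyte-like cells (1.81%, median 11209.5 UMIs), and held 75.3% of the Il6ra UMIs of that library. Neutrophil-like cells had 118 CPM [76.1, 174] and macrophage and monocyte-like cells 94.1 CPM [77.6, 113], and the intervals of these neighbours overlap. Hepatocyte-like cells, a classical IL-6 target, had 21.2 CPM [15.8, 27.8], CCl4 mesothelial-like cells 17.4 CPM [15.4, 19.5], mesenchymal-like cells 9.29 CPM [8.45, 10.2] and healthy endothelial-like cells 4.05 CPM [3.23, 5.02]. The Serpinb2 and Cxcl5 cluster, which held most Il6 UMIs, had 7.42 CPM [6.02, 9.04] of the receptor.

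Il11ra1 was highest in healthy mesothelial-like cells, 191 CPM [178, 206], followed by mesenchymal-like cells of the CCl4 library, 121 CPM [118, 124], and healthy cholangiocyte-like cells, 85.8 CPM [81.6, 90.1]. These intervals are separate. It was at 77.4 CPM [72.7, 82.3] in the Serpinb2 and Cxcl5 cluster and at 59.9 CPM [56.6, 63.3] in healthy endothelial-like cells. T and NK cell-like cells had 1 UMI. The gene has near-identical copies: the 3 identifiers named Il11ra2 had 4 UMIs in both files together, and the gene lists and software versions of the libraries differ, so its level, and its ratio between the libraries, is uncertain.

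**Figure D3:**
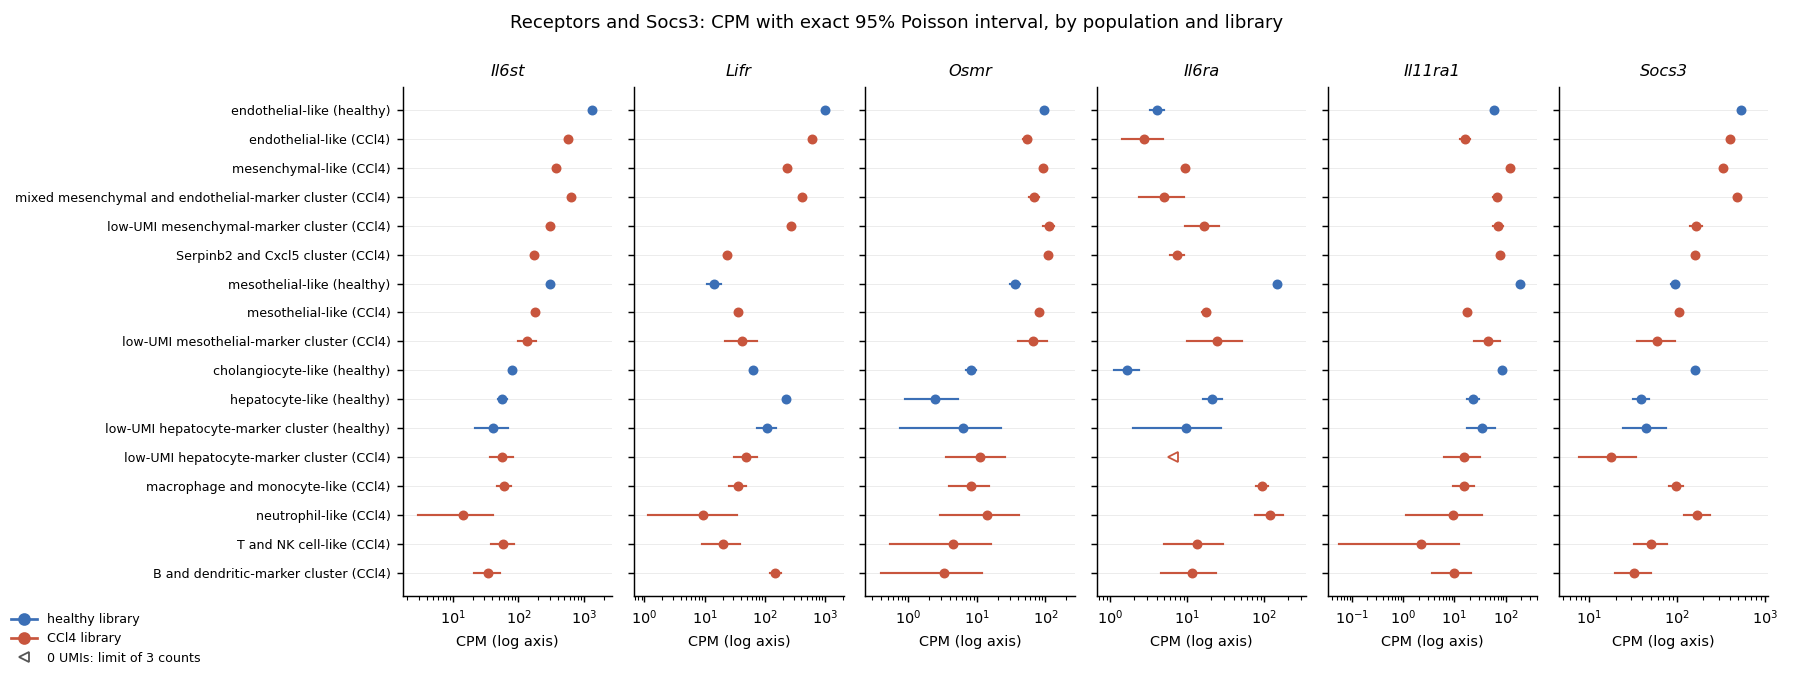
Level of the 5 receptor genes and Socs3 in the 17 populations of at least 50 cells, in CPM on logarithmic axes that differ between panels, with blue for the healthy and red for the CCl4 library, points with exact 95% Poisson intervals and an open triangle at the limit of 3 counts where no UMI was found. Il6st (1336 CPM) and Lifr (993 CPM) are highest in healthy endothelial-like cells, and Il6ra (148 CPM) and Il11ra1 (191 CPM) in healthy mesothelial-like cells.

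Since gp130 acts together with a partner chain, the share of cells with UMIs of both Il6st and a partner was computed at 2000 UMIs per cell. Il6st and Lifr were counted together in 75.2% [73.6, 76.7] of healthy endothelial-like cells, in 40.9% [36.8, 45.1] of those of the CCl4 library, in 19.9% [18.5, 21.3] of mesenchymal-like and in 4.97% of hepatocyte-like cells. Il6st and Osmr were found together in 16.2% [14.9, 17.5] of healthy and 6.71% [4.80, 9.09] of CCl4 endothelial-like cells, in 8.38% [7.46, 9.36] of mesenchymal-like cells and in 6.89% of the Serpinb2 and Cxcl5 cluster. Il6st with Il6ra was most frequent in healthy mesothelial-like cells, with 11.8% [7.97, 16.7] against 1.16% [0.559, 2.12] of CCl4 mesothelial-like, 1.51% of macrophage and monocyte-like and 0.549% of hepatocyte-like cells. Il6st with Il11ra1 was seen in 15.3% [10.9, 20.6] of healthy and 1.07% of CCl4 mesothelial-like cells, and in 10.3% of mesenchymal-like cells. Because 2000 UMIs are a small sample of a cell's RNA, these shares are lower than those of cells that carry both transcripts. They rise with the level of each gene. Whether both genes occur together more often than their separate shares would give was not tested.

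**Figure D4:**
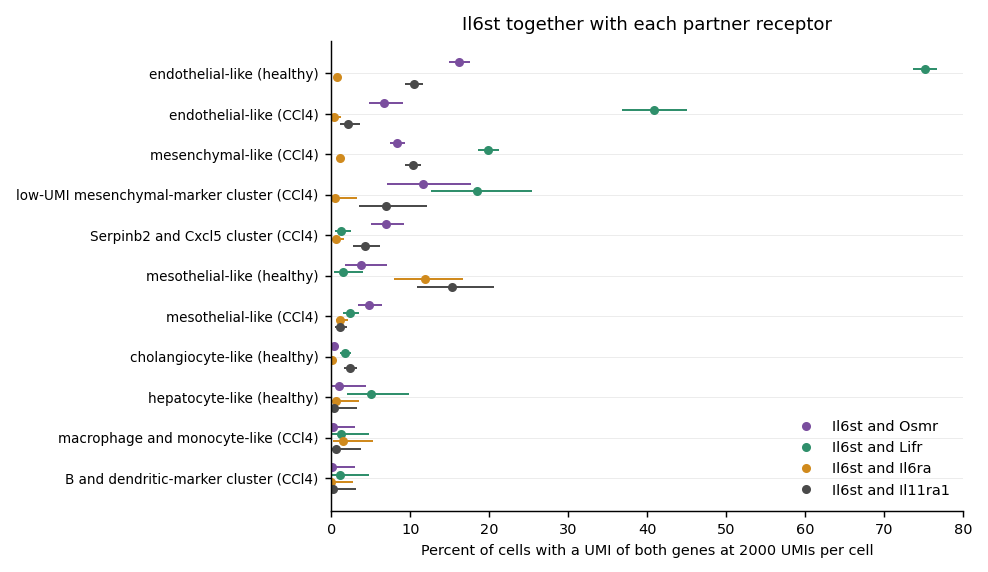
Percent of cells (horizontal axis) with a UMI of both Il6st and the partner receptor named in the key. Each cell of at least 2000 UMIs was thinned to 2000, and cells with fewer were left out. Lines are exact 95% binomial intervals, and populations with at least 100 cells of that depth are shown. Il6st and Lifr reach 75.2% in healthy endothelial-like cells, and Il6st and Il6ra reach 11.8% in healthy mesothelial-like cells.

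Socs3, the feedback inhibitor, was counted in all 17 populations and was highest in healthy endothelial-like cells. Healthy endothelial-like cells had 536 CPM [527, 547], and their clusters of at least 50 cells ranged from 376 CPM [357, 396] in the cells led by Cyp4b1, Clec4g and Col13a1 to 607 CPM [594, 620] in those led by Clec4g, Cd300lg and Cyp26b1, while the 44 healthy cells in the cluster led by Rpl39l, Sox2 and Tubb3 had 54.6 CPM [37.8, 76.2]. In the CCl4 library the level was 480 CPM [450, 511] in the mixed mesenchymal and endothelial-marker cluster, 405 CPM [386, 424] in endothelial-like and 334 CPM [329, 339] in mesenchymal-like cells, and after thinning 41.1% and 36.4% of these cells had a Socs3 UMI, against 44.7% of healthy endothelial-like cells. Among mesenchymal-like clusters the cells led by Dpep1, Thbs4 and Mfap4 had the highest value, 406 CPM [397, 415], as they had for Osmr. The Serpinb2 and Cxcl5 cluster had 159 CPM [152, 166], as much as healthy cholangiocyte-like cells, 158 CPM [153, 164]. The lowest named population was that of hepatocyte-like cells with 39.1 CPM [31.7, 47.8].

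Only mesothelial-like cells, endothelial-like cells and a cluster of hepatocyte-marker cells with few UMIs had at least 50 cells in both libraries, so that the libraries could be set side by side within a kind of cell. A gene was counted when its higher CPM was above the CPM that 3 UMIs would give in the library with the smaller total, and a ratio of at least 2 or at most 0.5 (CCl4 over healthy) was called. The clusters that hold these cells differ: healthy mesothelial-like cells are led by Myl7, Prph and Igfbp5 and those of the CCl4 library by Prg4, Pnoc and Tm4sf5, and CCl4 endothelial-like cells are mostly a cluster led by Rpl39l, Sox2 and Tubb3.

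In mesothelial-like cells the binding receptors of IL-6 and IL-11 were lower in the CCl4 library, and Osmr and Lifr were higher. Il6ra was at 148 CPM in the healthy and 17.4 CPM in the CCl4 library (ratio 0.117 [0.101, 0.136]). Il11ra1 was at 191 and 17.2 CPM (0.0901 [0.0781, 0.104]). The shared chain Il6st, at 308 and 178 CPM (0.579 [0.541, 0.620]), was lower but not past 2-fold. Osmr was at 36.1 and 79.2 CPM (2.19 [1.84, 2.63]) and Lifr at 14.6 and 36.1 CPM (2.48 [1.88, 3.33]), and the Lifr ratio was below 2 in 3 alternatives: 1.35 with no doublets removed, 1.85 with each library clustered on its own, and 1.77 with each cell weighted equally. Among ligands, Il6 went from 0 to 51 UMIs, 4.13-fold higher with the healthy count set to the limit of 3, while Lif (0.371 [0.194, 0.730], 17 and 26 UMIs) and Il11 (0.309 [0.130, 0.752], 11 and 14 UMIs) were lower. The Il6 value leaves out the counting error of the CCl4 level, 3.22 CPM [2.40, 4.23], and is not a lower bound. Lif was no longer past 2-fold when each library was clustered on its own, and 6 of its 17 healthy UMIs came from 1 cell. Socs3 was at 93.8 and 107 CPM (1.14 [1.01, 1.28]). Of the 9 members counted, 3 were higher and 4 lower by at least 2-fold, where 11.4% and 14.7% of all 13212 genes counted were. The median log2 ratio was -0.79 over the members and -0.04 over all genes.

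In endothelial-like cells the median ratio over the members counted was below 1, and so was that over all genes. Il6st was at 1336 and 573 CPM (ratio 0.429 [0.412, 0.447]) and Il11ra1 at 59.9 and 16.1 CPM (0.270 [0.209, 0.343]). The Il11ra1 ratio was 0.597 when each library was clustered on its own. Lifr was at 993 and 593 CPM (0.597 [0.573, 0.622]), Osmr at 95.2 and 54.4 CPM (0.572 [0.497, 0.654]) and Socs3 at 536 and 405 CPM (0.755 [0.718, 0.794]), and none of these reached 2-fold. Il6ra, with 84 and 12 UMIs, had a ratio of 0.683 [0.339, 1.26] whose interval includes 1. Il11, from 1 and 4 UMIs, had a ratio of 19.1 [1.89, 942], which is too wide to size. Of the 7 members counted, 1 was higher and 2 lower by at least 2-fold, where 9.26% and 16.2% of 13052 genes were, and the median log2 ratio was -0.74 over the members against -0.26 over all genes. With the total taken without the 50 most abundant genes, the median over all genes was -0.06. Most CCl4 endothelial-like cells (638) lay in the cluster led by Rpl39l, Sox2 and Tubb3, which held 44 of the healthy ones, and within that cluster the values ran the other way: Il6st was at 122 CPM in the healthy and 569 CPM in the CCl4 library, Lifr at 117 and 602 CPM, Socs3 at 54.6 and 402 CPM, and Osmr at 4.81 CPM (3 UMIs) and 54.7 CPM. The 44 healthy cells had a median of 2088.5 UMIs and the 638 CCl4 cells 6448, and the part of depth in these values was not tested.

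In the low-UMI cells with hepatocyte markers (170 healthy and 321 CCl4 cells, median 1494 and 883 UMIs), 5 members were counted and 0 were higher and 3 lower by at least 2-fold, where 10% and 18.1% of 7017 genes were. The 3 were Lifr (0.449 [0.25, 0.791]), Il11ra1 (0.442 [0.145, 1.25]) and Socs3 (0.397 [0.144, 1.01]), and the intervals of the last pair include 1. Il6st (1.39 [0.689, 2.94]) and Osmr (1.74 [0.284, 18.2]) were not past 2-fold and their intervals include 1. Hepatocyte-like cells proper were too few in the CCl4 library (9) to compare. Mesenchymal-like cells could not be compared either, with 15 healthy cells, of which 3 dividing cells held 119973 of the 206317 UMIs. The ratio of Osmr there was 9.37 [2.59, 77.4], from 2 healthy UMIs, and that of Il6st 2.19. Il11ra1 ran the other way, at 310 CPM in the healthy and 121 CPM in the CCl4 library.

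**Figure D5:**
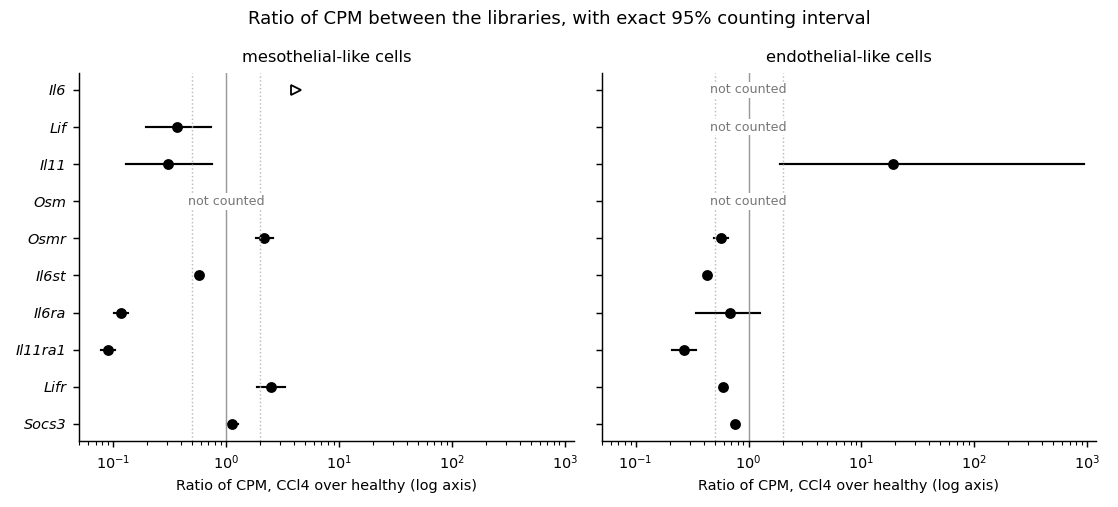
Ratio of CPM, CCl4 over healthy, on a logarithmic axis, for each member in mesothelial-like (left) and endothelial-like cells (right), with exact 95% counting intervals, dotted lines at 0.5 and 2, and an open triangle for Il6, whose healthy count was 0 and whose point is a lower limit. In mesothelial-like cells Il6ra (0.117) and Il11ra1 (0.0901) lie far to the left and Osmr (2.19) and Lifr (2.48) to the right of 1.

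The other genes of the pathway were taken as a list of 52 genes. In mesothelial-like cells 41 were counted, of which 8 were higher and 9 lower by at least 2-fold, with a median log2 ratio of -0.17 (-0.04 over all genes, of which 11.4% were higher and 14.7% lower). In endothelial-like cells 46 were counted, 4 higher and 18 lower, with a median of -0.56 (-0.26 over all genes, of which 9.26% were higher and 16.2% lower), and 15 of the 18 lower genes were acute phase genes of hepatocytes. In the low-UMI hepatocyte-marker cells 36 were counted, 6 higher and 8 lower, with a median of -0.24 (-0.17 over all genes, of which 10% were higher and 18.1% lower). Among other ligands, Ctf1 (cardiotrophin 1) was highest in healthy mesothelial-like cells, at 56.1 CPM, with a ratio of 0.521 [0.442, 0.615] there, and Clcf1 in healthy cholangiocyte-like cells, at 61.8 CPM. Among other receptors, Cntfr was highest in healthy endothelial-like cells (51.7 CPM) and Il27ra, which pairs with gp130 to bind IL-27, in T and NK cell-like cells (44.6 CPM).

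Of 10 genes that STAT3 is known to induce, 4 were higher by at least 2-fold in CCl4 mesothelial-like cells and 0 lower, against 11.4% and 14.7% of all genes, with a median ratio of 1.77. In endothelial-like cells 2 were higher and 2 lower, against 9.26% and 16.2% of all genes, with a median of 1.11. The 4 higher in mesothelial-like cells were Lcn2, an iron-binding protein of the acute phase (6.50 and 323 CPM, ratio 49.8 [33.7, 77.0]), Cebpd (3.23 [2.95, 3.54]), Timp1 (2.58 [2.38, 2.81]) and Bcl3 (2.52 [1.94, 3.32]). The 2 lower in endothelial-like cells were Cebpd (0.482 [0.445, 0.521]) and Lcn2 (0.442 [0.247, 0.739]), while 2 other genes of the 10 were higher there by at least 2-fold. In mesothelial-like cells Junb (1.92 [1.83, 2.02]), Myc (1.62 [1.16, 2.32]) and Cebpb (1.26 [1.21, 1.33]) stayed below 2-fold, and Pim1 (0.518 [0.464, 0.577]) and Mcl1 (0.883 [0.806, 0.969]) were lower. None of the 7 kinases and STATs passed 2-fold, with Stat3 itself at 166 and 229 CPM (1.37 [1.26, 1.50]), Jak1 at 1.03 [0.932, 1.13], Tyk2 at 0.573 [0.390, 0.856], Stat5a at 0.536 [0.400, 0.725] and Stat5b at 0.504 [0.404, 0.632]. The 5 other feedback genes stayed within 2-fold too, among them Socs2 (0.891 [0.758, 1.05]), Cish (0.709 [0.590, 0.855]) and Ptpn11 (1.14 [0.974, 1.34]). The sheddases moved apart, with Adam17 at 1.76 [1.42, 2.21] and Adam10 at 0.581 [0.512, 0.660].

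Acute phase genes of hepatocytes were divided in mesothelial-like cells, 4 higher and 9 lower of 14 counted, with a median ratio of 0.168. Of all genes counted there, 11.4% were higher and 14.7% lower by at least 2-fold. Saa3, a serum amyloid A gene that is also made outside hepatocytes, had 1 UMI in the healthy and 381412 UMIs in the CCl4 mesothelial-like cells, or 24080 CPM there, and Hp (6.12 [4.99, 7.57]), Saa1 (3.59 [2.05, 6.86]) and Lbp (2.09 [1.86, 2.35]) were also higher. Itih4 was higher by less than 2-fold (1.67 [1.03, 2.87]). The lower genes were the fibrinogen genes Fga, Fgb and Fgg and Hpx, Orm1, Lrg1, Hamp, Itih3 and Apcs, with ratios from 0.0294 (Hamp) to 0.219 (Lrg1). In endothelial-like cells 15 of 18 acute phase genes were lower and 1 higher, with a median of 0.118, where 16.2% and 9.26% of all genes were. Hp (0.106 [0.0725, 0.151]), Saa1 (0.0964 [0.0310, 0.228]) and Lbp (0.321 [0.273, 0.374]) were lower there, while the interval of Lrg1, from 0.974 to 1.24, includes 1. The libraries held 160 and 9 hepatocyte-like cells, whose part in the low values was not tested.

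For each member the genes with the most similar profile over the 17 populations were found by Pearson's r of log2(CPM + 1), a description without a test, in which populations of 1 library share its depth and background RNA. Osm was nearest to Lrrc25 (r = 0.976), Oas3 (0.970) and Chil3 (0.967), genes highest in macrophage and monocyte-like or neutrophil-like cells. Il6 was nearest to Trem2 (0.910), which peaked in macrophage and monocyte-like cells. Next came Ccl24 (0.885) and Ifi205 (0.880), which peaked in the Serpinb2 and Cxcl5 cluster. The Il6 and Osm UMIs of the macrophage and monocyte-like cells lay mostly in 14 cells with basophil and mast cell genes. Likeness to a macrophage gene over whole populations therefore does not place these ligands in macrophages. Lif was nearest to Aldh1a2 (0.820), Spcs1 (0.809) and Fras1 (0.809), and Il11 to C1qtnf12 (0.874), Rab11b (0.802) and Tgfb2 (0.80), each highest in healthy mesothelial-like cells. Among receptors, Il6st was nearest to Msrb3 (0.964), Efnb1 (0.948) and Tfpi (0.939), and Lifr to Slc29a1 (0.917), Adgrl2 (0.867) and Nrp1 (0.863), all highest in endothelial-like cells. Osmr was nearest to Tgfbr3 (0.939), C1qtnf1 (0.925) and Lix1l (0.920), and Socs3 to Cpd (0.913), Mark4 (0.900) and Smurf2 (0.898). The nearest profiles to Il6ra were only loosely similar, with Daglb (0.759), Bst1 (0.756) and Gcnt1 (0.753), and those to Il11ra1 were Copz2 (0.879), Tmed1 (0.855) and Ptov1 (0.842).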

How the data were processed

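Single liver cells of 1 healthy and 1 CCl4-injured library of mice were analysed. The authors deposited UMI counts per gene and cell, not normalized, in matrices written by Cell Ranger 3.1.0 (healthy, 31053 genes) and 6.0.1 (CCl4, 32285 genes). The study's methods name a human build, which the mouse identifiers contradict, so no coordinates come from the matrices. Differences in gene models and software between the libraries could change a gene's count, as could reads shared between near-identical genes.

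The 30406 shared genes were used. Cells needed 500 UMIs, 200 genes and at most 30% mitochondrial UMIs. Doublets were scored with Scrublet in scanpy 1.11.5 and the highest scores removed at 0.8% per 1000 cells. After the data were seen, 24 CCl4 cells with over 5% globin UMIs were set aside. Both libraries were clustered together (2000 variable genes without the members, 10 principal components, 20 neighbours, Leiden resolution 1). A cluster was named when at least 3 markers of a class were 2-fold over the mean of the other clusters and in 10% of its cells. It stayed unnamed all the same when the markers of another class reached 0.5 of that number. The Serpinb2 and Cxcl5 cluster, with 4 mesenchymal and 3 mesothelial markers, was such a case. Clusters led by genes of another class, or with few UMIs and no marker among the leading genes, also stayed unnamed. Rebuilt names can differ from those of the study.

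Counts were summed per population and divided by the total (CPM). Exact Poisson intervals, Clopper-Pearson intervals for shares and exact conditional binomial intervals for ratios were used, all at 95%, with a limit of 3 counts where none was found. Intervals and limits cover counting error only. Each group having 1 library, nothing was tested and no p-value is given. The computation of intervals, ratios and thinned shares was tested on simulated data. The members and gene lists were chosen with earlier results of these data known. Genes named beyond the members were the 2 with the most UMIs in each role of the pathway list, those whose ratio interval excludes 1 in mesothelial-like cells, those past 2-fold there, and the 3 nearest profiles per member; 1 gene that this rule names is not reported here. The subsets of macrophage and monocyte-like cells were chosen after their values were seen. Alternatives covered filters, clustering, weighting and totals.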

Additional observations from a re-analysis of the deposited data

Results flagged for a closer look

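The ratio of CPM, CCl4 over healthy, of Osmr, Lifr, Socs3 and Il11 pointed in opposite directions in mesothelial-like and endothelial-like cells. The share of all genes that do so is not given here, so this is not read as a trait of the family. Osmr was at 2.19 in mesothelial-like and 0.572 in endothelial-like cells, Lifr at 2.48 and 0.597, Socs3 at 1.14 and 0.755, and Il11 at 0.309 and 19.1. The difference between the cell classes was not tested, since each group has 1 library, and the ratio of Il11 in endothelial-like cells rests on 1 and 4 UMIs. Within the endothelial-like cluster that held most CCl4 cells (638, and 44 healthy cells), Osmr, Lifr and Socs3 were higher in the CCl4 library, as in mesothelial-like cells. UMIs of the rare ligands also lay in CCl4 cells that entered no population: 45 of Il6 and 9 of Osm, in cells removed as poor, as doublets or for globin UMIs, where the healthy library had none.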

How the results depend on the processing

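Over 16 main results, 176 alternative values were computed: 126 were labelled the same, 50 moved further and 0 reversed. For levels and the ratio the same means within the counting interval, and for counts of members it means a count of similar size. A reversal could be seen only for the Socs3 ratio in mesothelial-like cells, the only ratio among the main results. The values of Il6 in healthy mesothelial-like cells were all 0. Of 110 other ratios 95 stayed within the interval, 14 moved further and 1 reversed: Il6ra in endothelial-like cells, 1.11 in place of 0.683 with each library clustered on its own. That clustering also gave Il6 10.6 CPM in CCl4 mesothelial-like cells (3.22 as reported), since 484 of the 641 cells of the Serpinb2 and Cxcl5 cluster were named mesothelial-like and 157 mesenchymal-like there, Il6st 1374 and Socs3 566 CPM in healthy endothelial-like cells, a mesothelial Socs3 ratio of 1.31, and 3 higher and 1 lower member in endothelial-like cells. With cells weighted equally 3 members (Il6, Lif and Il11) were higher there. In macrophage and monocyte-like cells the 14 cells with basophil and mast cell genes decided both ligands: with at most 10% mitochondrial UMIs, 30 principal components or resolution 2, where they were grouped with neutrophil-like cells (first) or left unnamed, Osm was 16.3, 17.3 and 16.5 CPM and Il6 2.72, 1.92 and 1.83 CPM, and leaving them out (added after seeing the data) gave 21.7 and 1.73 CPM. Osm was 146 CPM with no doublets removed and 265 CPM with cells weighted equally, where Il6 was 50.8 CPM. Totals without the 50 most abundant genes raise every level by construction: Il6 to 4.48 CPM in mesothelial-like cells, 30.4 in the Serpinb2 and Cxcl5 cluster and 47.8 in macrophage and monocyte-like cells, Lif to 3.23, Osm to 260.3, Osmr to 125, Il6st to 1662.5, Socs3 to 668, and Il6ra and Lifr in hepatocyte-like cells to 35.8 and 379 CPM. Osmr in mesenchymal-like cells was 87.8 CPM with no doublets removed, 88.0 with 30 components and 94.0 with cells weighted equally. Il6st in healthy endothelial-like cells was 1378 CPM with at least 1000 UMIs, 1373 with 30 components, resolution 2 or globin-rich cells kept, and 1390 with cells weighted equally. Socs3 there was 554 CPM with the 10% mitochondrial limit, 552 with no such limit or globin-rich cells kept, 576 with at least 1000 UMIs, 551 with 30 components or resolution 2, 433 with cells weighted equally and 547 with at least 1000 genes per cell. In hepatocyte-like cells the 10% mitochondrial limit left Il6ra at 5.28 CPM (4 UMIs) and Lifr at 97.6 CPM, equal weights gave 10.9 and 201 CPM, and Lifr was 196 CPM with no limit and 206 with 30 components. The cause of these shifts was not tested. With globin-rich cells kept, fewer than 50 CCl4 cells were named endothelial-like, so no counts of members were had there. No paired analysis was possible because each group has 1 library, and for the same reason no library could be left out. Depth limits the ligands most: Il6, Lif, Il11 and Osm have from 2 to 551 UMIs per library.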
